A study of Mus musculus with 4 samples.

Results

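The genes of the methionine cycle and of one-carbon metabolism were followed across age in the liver of male C57BL/6Rj mice (C57BL6 in the labels), aged 3, 9, 15 or 21 months. The set was chosen by gene symbol and holds 10 of the 33924 symbols in the count files: Mat1a, Gnmt, Bhmt, Ahcy, Cbs, Cth, Pemt, Gamt, Shmt1 and Mthfd1. All 10 had counts in every library. For each age, 1 μg of liver RNA from each of 24 mice, 4 at each of 6 times of day, went into a single pooled library. Time of day was therefore averaged within a pool, differences between mice cannot be seen, and no value has a replicate error. The sources give no transgene, deletion or treatment for any of the 4 groups. Uncapped RNA was digested, the 5′-ends were ligated to bar-coded linkers, and 35 bp reads were sequenced for all 4 libraries on the same SOLiD lane.

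In the methionine cycle, methionine is activated to S-adenosylmethionine (Mat1a), the methyl donor of most methyltransferases, which give S-adenosylhomocysteine as the by-product. This is split to homocysteine (Ahcy), which is either remethylated to methionine with betaine (Bhmt) or with methyl groups of the folate cycle (to which Shmt1 and Mthfd1 belong), or passed to cysteine by transsulfuration (Cbs and Cth). Hepatocytes are the main site of these reactions, and glycine, phosphatidylethanolamine and guanidinoacetate (the substrates of Gnmt, Pemt and Gamt) take up much of the methyl flow there.

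The 250 bases before the start site were looked at for the members whose scaled count at 15 months was at least 1.5-fold below that at 3 months (Bhmt, Ahcy, Cbs and Mthfd1), and for Bhmt2, the neighbour of Bhmt. The windows come from RefSeq on GRCm38.p6, whose table matched 8 of the 10 members (not Mat1a and Cth). They are printed 5′ to 3′ on the strand of the gene, with matches to 5 short motifs on either strand in capitals. The motifs were TATAAA (the TATA box), CCAAT (the CCAAT box), GGGCGG (the GC box), CACGTG (an E-box, the type bound by clock factors) and AGGTCA (the half-site of many nuclear receptors). No matches overlapped in the printed windows, and the 4 members were chosen by their values.
Bhmt (chr13:93637759-93638008, minus strand): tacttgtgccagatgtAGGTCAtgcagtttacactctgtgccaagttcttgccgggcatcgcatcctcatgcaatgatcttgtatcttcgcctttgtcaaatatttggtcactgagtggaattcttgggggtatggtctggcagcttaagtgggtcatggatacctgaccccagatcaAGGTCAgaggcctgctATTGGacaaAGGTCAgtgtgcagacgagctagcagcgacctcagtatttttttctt
Bhmt2 (chr13:93674303-93674552, minus strand): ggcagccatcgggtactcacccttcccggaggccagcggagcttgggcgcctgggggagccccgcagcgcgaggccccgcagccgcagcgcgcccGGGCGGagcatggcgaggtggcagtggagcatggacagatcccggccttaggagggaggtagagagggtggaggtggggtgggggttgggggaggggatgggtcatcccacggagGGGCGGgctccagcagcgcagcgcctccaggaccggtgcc
Ahcy (chr2:155074498-155074747, minus strand): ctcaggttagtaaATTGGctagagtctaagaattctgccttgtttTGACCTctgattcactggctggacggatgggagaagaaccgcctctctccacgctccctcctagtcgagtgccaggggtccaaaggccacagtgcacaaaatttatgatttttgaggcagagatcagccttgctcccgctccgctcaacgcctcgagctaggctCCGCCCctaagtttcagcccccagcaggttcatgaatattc
Cbs (chr17:31637206-31637455, minus strand): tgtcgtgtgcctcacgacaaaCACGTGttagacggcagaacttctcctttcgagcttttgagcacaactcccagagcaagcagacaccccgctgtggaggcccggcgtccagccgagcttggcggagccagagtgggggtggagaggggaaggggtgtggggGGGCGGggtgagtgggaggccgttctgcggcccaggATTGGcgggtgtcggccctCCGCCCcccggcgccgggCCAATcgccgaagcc
Mthfd1 (chr12:76254982-76255231, plus strand): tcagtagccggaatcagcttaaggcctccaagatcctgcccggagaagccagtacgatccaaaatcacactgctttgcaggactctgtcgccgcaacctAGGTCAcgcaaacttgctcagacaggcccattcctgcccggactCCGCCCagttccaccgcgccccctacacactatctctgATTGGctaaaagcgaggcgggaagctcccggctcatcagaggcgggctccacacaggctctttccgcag
AGGTCA was found 3 times before Bhmt, at 234, 72 and 47 bases before the start site, and was not found in the window of Bhmt2. The 8 matched members have 9 windows, since Pemt has 2. AGGTCA was present in 4 of the 9 (those of Ahcy, Bhmt, Gnmt and Mthfd1), against 14% of all 32851 windows of that length. CCAAT was found in 7 of the 9 windows (33.8% of all windows), GGGCGG in 5 (32.7%), CACGTG in 1, that of Cbs (6.02%), and TATAAA in 0 (12.4%). A match is a description of the letters and says nothing about binding.

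The counts on genes summed to between 525772 (15 months) and 958586 (9 months) per library, with between 11124 and 12262 genes detected, and between 72.2% and 76.7% of all records were reads without a unique place, which were not counted. The 15 month library was the smallest. Counts were therefore divided by the geometric mean over the 8704 genes with a count in every library, as in centered log-ratio (clr) analysis, and are given as scaled counts. The 95% intervals of a count (exact Poisson) and of a ratio of 2 libraries (exact Clopper-Pearson) cover counting error only, and reads without molecular identifiers are not independent molecules. All 7 hepatocyte markers (among them Alb and Apoa1) had counts in every library, and their scaled sum was 1.09, 0.898 and 1.06 times that of 3 months at 9, 15 and 21 months. At 15 months 1 of the 7 was at least 1.5-fold lower than at 3 months. In bulk liver, fewer cells of a type and less RNA per cell cannot be told apart.

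**Figure D1:**
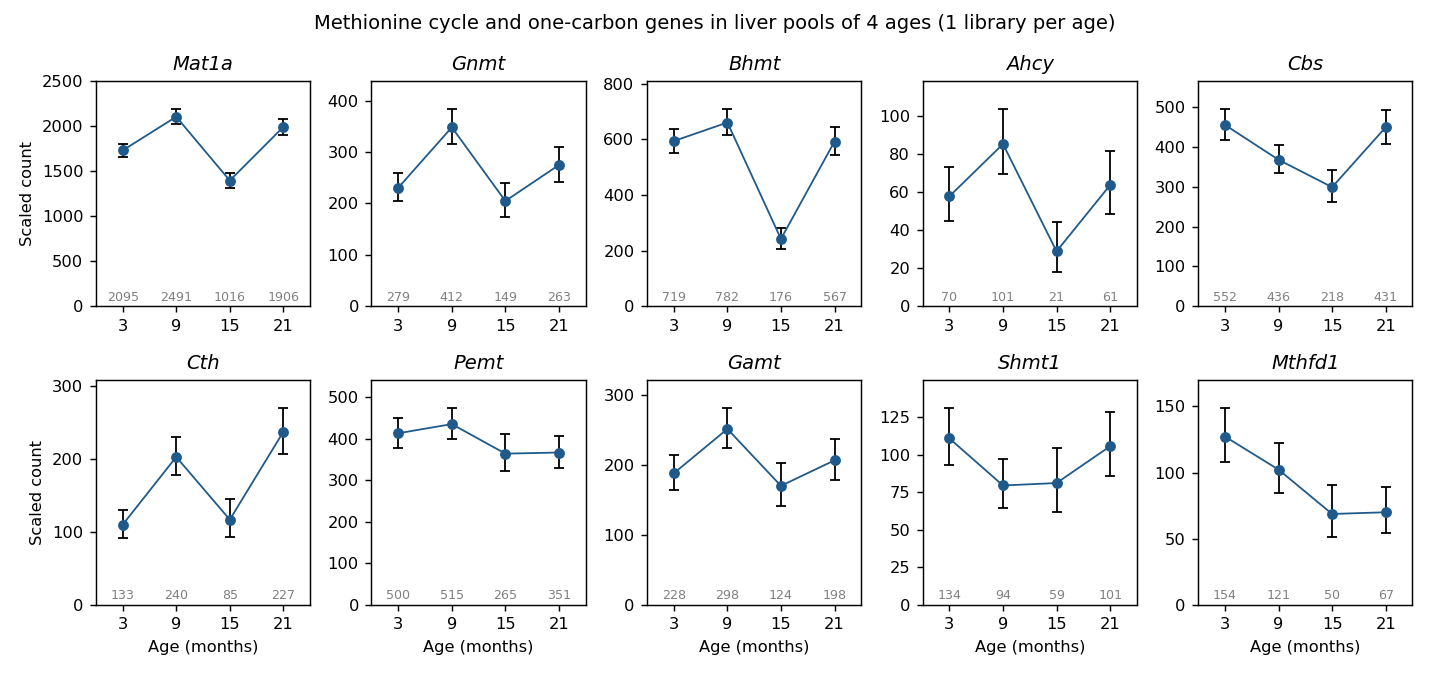
Scaled counts of each member (y axis, starting at 0 in every panel) against age in months, 1 pooled library per age. Points are the scaled counts, bars the exact Poisson 95% intervals, and grey numbers the raw counts; Bhmt and Ahcy have their lowest point at 15 months and Cth its highest at 21 months.

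Among the genes of the methionine cycle itself, Bhmt and Ahcy stood lowest at 15 months by the widest margin. Bhmt, the betaine-dependent remethylation enzyme, had 719, 782, 176 and 567 counts at 3, 9, 15 and 21 months, and scaled counts of 593.8, 660.4, 241.7 and 592.1. The 15 month library was the only low one. Its ratio to 3 months was 0.407 (95% interval from 0.343 to 0.481), whereas the 21 month ratio was 0.997 (from 0.892 to 1.11), and from 15 to 21 months the ratio was 2.45 (from 2.07 to 2.92). Ahcy, the hydrolase that removes S-adenosylhomocysteine, had 70, 101, 21 and 61 counts, with scaled counts of 57.8, 85.3, 28.8 and 63.7. Here the ratio to 3 months was 1.48 (from 1.08 to 2.03) at 9 months, 0.499 (from 0.291 to 0.822) at 15 months and 1.10 (from 0.769 to 1.58) at 21 months. Summed over the 4 libraries, Ahcy had the fewest counts of the 10 members. Of the 35-base windows in the first 100 bases of its transcripts, 65.5% matched at least 2 places in the genome with up to 1 mismatch (6.91% for Pemt, 0 for the other members), and reads without a unique place were not counted. Windows that matched no place were 60 of 275 for Pemt, 30 of 248 for Cbs and 21 of 132 for Shmt1, and 0 for the other members. For Bhmt2 they were 29 of 66.

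Mat1a, the liver form of methionine adenosyltransferase, had the most counts of the 10 members, with 2095, 2491, 1016 and 1906. Its scaled counts were 1730.2, 2103.7, 1395.0 and 1990.4, so that the 4 libraries differed by at most 1.51-fold (between 15 and 9 months). Against 3 months, the ratio was 1.22 (from 1.15 to 1.29) at 9 months, 0.806 (from 0.747 to 0.869) at 15 months and 1.15 (from 1.08 to 1.22) at 21 months. Gnmt, which methylates glycine and so disposes of S-adenosylmethionine, had 279, 412, 149 and 263 counts and scaled counts of 230.4, 347.9, 204.6 and 274.6. It was highest at 9 months, at 1.51 times the 3 month value (from 1.29 to 1.76), which was under 1.5-fold with library totals, a pseudocount or the normalisation genes of the study. At 15 and 21 months Gnmt lay at 0.888 (from 0.723 to 1.09) and 1.19 (from 1.003 to 1.42).

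Of the transsulfuration enzymes, Cbs was lowest at 15 months and Cth at 3 months. Cbs, which joins homocysteine and serine to cystathionine, had 552, 436, 218 and 431 counts, with scaled counts of 455.9, 368.2, 299.3 and 450.1. At 15 months it stood at 0.657 times 3 months (from 0.559 to 0.769), and at 21 months at 0.987 (from 0.868 to 1.122). The 15 month value of Cbs was past 1.5-fold only with the scaling used here and with a pseudocount. Cth, which cleaves cystathionine to cysteine, had 133, 240, 85 and 227 counts and scaled counts of 109.8, 202.7, 116.7 and 237.0. The ratio of Cth to 3 months was 1.85 (from 1.49 to 2.30) in the 9 month library, 1.06 (from 0.800 to 1.41) in the 15 month library and 2.16 (from 1.73 to 2.69) in the 21 month library. The intervals of the 3 and 15 month levels overlapped, as did those of 9 and 21 months.

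Pemt, which makes phosphatidylcholine by methylation, had 500, 515, 265 and 351 counts and scaled counts of 412.9, 434.9, 363.9 and 366.5. No ratio of Pemt to 3 months had an interval that left out 1, and its 15 month level was 0.837 times that of 9 months (from 0.719 to 0.972). Gamt, the last enzyme of creatine synthesis, had 228, 298, 124 and 198 counts and scaled counts of 188.3, 251.7, 170.3 and 206.8. Among the ratios of Gamt to 3 months, that of 9 months alone had an interval that left out 1, at 1.34 (from 1.121 to 1.60). Against 9 months, Gamt was at 0.677 (from 0.544 to 0.837) at 15 months and at 0.822 (from 0.683 to 0.987) at 21 months.

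The folate enzymes were at lower counts. Shmt1, the cytosolic serine hydroxymethyltransferase, had 134, 94, 59 and 101 counts, and scaled counts of 110.7, 79.4, 81.0 and 105.5. The 9 month ratio of Shmt1 to 3 months was 0.717 (from 0.545 to 0.941), and those of 15 and 21 months were 0.732 (from 0.530 to 1.001) and 0.953 (from 0.729 to 1.24). Mthfd1, the trifunctional enzyme that interconverts the folate-bound one-carbon units, had 154, 121, 50 and 67 counts and scaled counts of 127.2, 102.2, 68.7 and 70.0. It was low in both older libraries, with ratios to 3 months of 0.540 (from 0.384 to 0.747) at 15 months and 0.550 (from 0.407 to 0.737) at 21 months.

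With 1 library per age, a call here is a ratio of at least 1.5-fold and not a test, and the comparisons of 9, 15 and 21 months with 3 months share the 3 month library. From 3 to 9 months, 2 of the 10 members were at least 1.5-fold higher (Gnmt and Cth) and 0 lower. With TMM factors Ahcy was also past 1.5-fold higher, and with the 7 normalisation genes of the study Shmt1 was past 1.5-fold lower and Gnmt was not past it. Among all 4295 genes with at least 20 counts in 1 library and a count in every library, 17.4% were higher and 20.1% lower, and among the 737 genes with a mean of at least 100 counts 7.06% and 8.01%. Only 7 of the 10 members had such a mean. Ahcy (63.25), Shmt1 (97) and Mthfd1 (98) did not, so the shares of that class are not matched to them here or below. From 3 to 15 months, 0 members were higher (14.1% of all genes and 5.56% of those with a mean of at least 100 counts) and 4 were lower, namely Bhmt, Ahcy, Cbs and Mthfd1 (26.8% and 15.7%). From 3 to 21 months, 1 was higher, Cth (15.5% and 4.34%), and 1 lower, Mthfd1 (22.7% and 8.28%). Between neighbouring ages, 5 members were at least 1.5-fold lower at 15 than at 9 months (Mat1a, Gnmt, Bhmt, Ahcy and Cth), against 23.8% of all genes and 12.2% of those with a mean of at least 100 counts, and 4 were higher at 21 than at 15 months (Bhmt, Ahcy, Cbs and Cth), against 22.9% and 9.63%. With the 7 normalisation genes, 2 of the 5 calls from 9 to 15 months were left (Bhmt and Ahcy), and that of Mat1a was also lost with library totals, TMM and DESeq2 factors. With a pseudocount of 1, Gamt and Mthfd1 were also at least 1.5-fold lower from 9 to 15 months, and Shmt1 from 3 to 15 months. From 15 to 21 months, Cbs (log2 ratio 0.588, against 0.585 for 1.5-fold) was past 1.5-fold only with the scaling used here and with a pseudocount. With the pseudocount Mat1a was past it too.

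**Figure D2:**
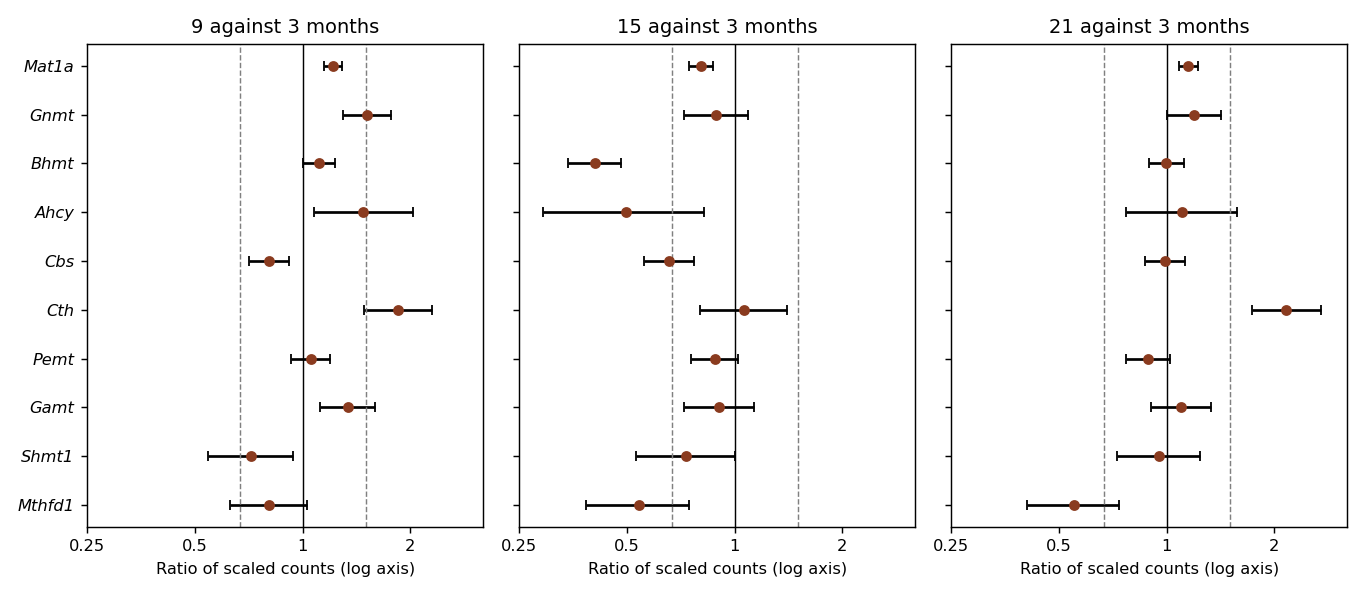
Ratios of the scaled counts of each member to the 3 month library (x axis, log scale), at 9, 15 and 21 months. Points are ratios, bars exact Clopper-Pearson 95% intervals, the solid line 1 and the dashed lines 1.5-fold; the 3 panels share the 3 month library.

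The median log2 ratio of the 10 members to 3 months was 0.22 at 9 months, -0.38 at 15 months and 0.07 at 21 months. Over all genes tested the medians were -0.04, -0.16 and -0.07, and over those with a mean of at least 100 counts -0.02, -0.20 and -0.05. The 15 month values depend on the scaling. Every log2 ratio of 15 to 3 months was higher by 0.13 with library totals, 0.07 with TMM and 0.05 with DESeq2 factors. The 7 normalisation genes raised it by 0.13, and the scale factors with a pseudocount of 1 moved it by -0.22. From 9 to 15 months the members' median was -0.58 (all genes -0.12), and from 15 to 21 months 0.47 (all genes 0.09). Genes with a mean of at least 100 counts had -0.17 and 0.13 for these steps. Of the 10 members, 8 had their lowest scaled count at 15 months (all but Cth and Shmt1), against 34.4% of all genes and 44.8% of those with a mean of at least 100 counts. The highest scaled count of 6 members was at 9 months, against 26.5% and 29.9%, but that of only 3 with the 7 normalisation genes. How many were lowest at 15 months depended on the scaling and ran from 6 to 10. As a share of all gene counts, the 10 members held 0.509%, 0.573%, 0.411% and 0.567% (95% Wilson intervals from 0.495 to 0.523, 0.558 to 0.588, 0.394 to 0.429 and 0.550 to 0.584).

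**Figure D3:**
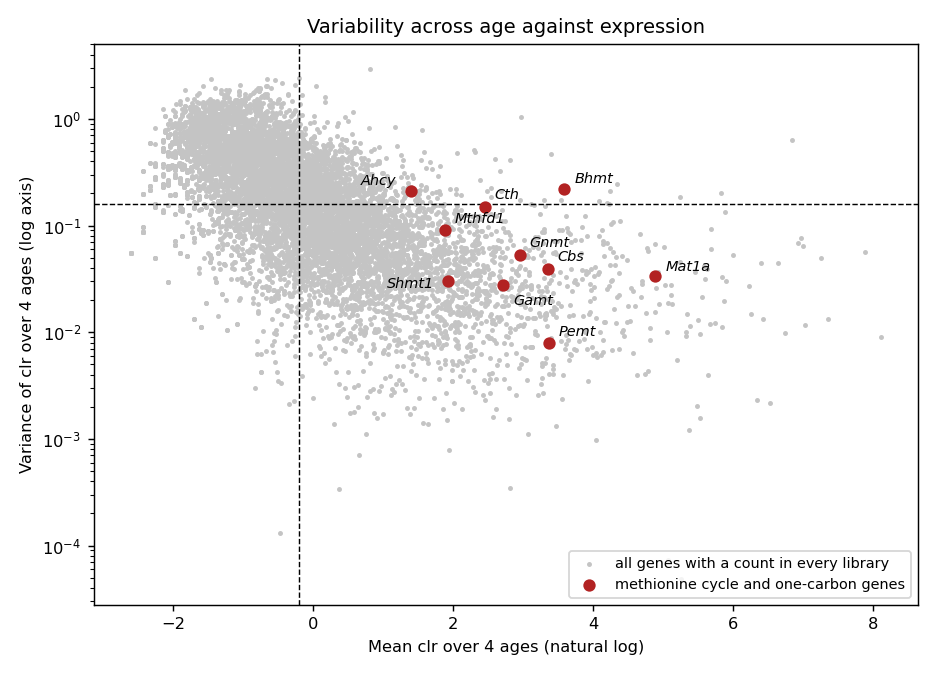
Variance of clr over the 4 ages (y axis, log scale) against mean clr (x axis, natural log) for the 8704 genes with a count in every library, with the 10 members in red and the medians of both measures as dashed lines. All 10 members lie right of the median of the mean and 8 lie below the median of the variance; Bhmt and Ahcy lie above it.

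As a measure of variability across age, the variance of clr (natural log, divisor 3) was 0.220 for Bhmt, 0.211 for Ahcy and 0.150 for Cth, and 0.0906 for Mthfd1. Then followed Gnmt with 0.0533, Cbs with 0.0394, Mat1a with 0.0335, Shmt1 with 0.0301 and Gamt with 0.0277, and the least variable was Pemt with 0.00784. The median over the 10 members was 0.0463, that over all 8704 genes 0.160 and that over the genes with a mean of at least 100 counts 0.0264. The expression of all 10 members was above the median of the mean clr, and 8 of the 10 had both a mean above and a variance below the medians of all genes, as did 38.1% of all genes and 96.1% of those with a mean of at least 100 counts. Against the median variance of the latter genes, 9 of the 10 members were more variable, all but Pemt. Of these 9, Ahcy, Shmt1 and Mthfd1 had means under 100 counts (63.25, 97 and 98) and so more counting noise. Gamt, Shmt1 and Mat1a lay near the middle of that class, above 52.1%, 56.2% and 59.2% of its variances. Without the 15 month library, the variance was 0.00471 for Bhmt, 0.0433 for Ahcy, 0.0129 for Cbs and 0.0108 for Mat1a, and without the 9 month library 0.0226 for Gnmt and 0.00995 for Gamt. Leaving out the 3 month library gave 0.0516 for Mat1a, 0.320 for Ahcy and 0.0525 for Mthfd1, and leaving out the 21 month library 0.0806 for Gnmt and 0.0434 for Gamt.

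Pearson's chi-square test of the 4 counts of each gene, with Benjamini-Hochberg adjustment over the 4295 genes, compares the libraries with counting noise and not the ages with differences between mice. It passed an adjusted p of 0.05 for 8 of the 10 members, against 44.6% of all genes tested and 72.5% of those with a mean of at least 100 counts. Bhmt (adjusted p = 1.45e-32) and Mat1a (4.83e-29) had the lowest values, and Pemt (0.0578) and Shmt1 (0.0672) did not pass. Without the 15 month library, 6 passed, with Bhmt and Ahcy lost. A linear trend with age, tested with edgeR's quasi-likelihood test, passed for 0 of the 10 members. At an unadjusted p of 0.05 there were 2, Cth and Mthfd1, against 5.21% of all genes tested, and with DESeq2 0 at either threshold. The fitted change from 3 to 21 months was 0.81 ± 0.40 on the log2 scale for Cth (adjusted p = 0.946) and -0.90 ± 0.41 for Mthfd1 (adjusted p = 0.853). The value after ± is an approximate SE, calculated back from the change and the F statistic of the test. Without the 3 month library, the change fitted over 9 to 21 months was 0.23 for Cth and -0.55 for Mthfd1. Without the 21 month library, that over 3 to 15 months was 0.20 and -0.79. Leaving out the 9 month library gave 1.04 and -0.89 from 3 to 21 months, and leaving out the 15 month library 0.99 and -0.84. Over all 5569 genes tested, 0.0539% passed with a higher and 0.0539% with a lower level at older age.

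Ratios of the counts of 2 genes in the same library do not depend on the scaling between libraries. The pairs were chosen after the counts had been seen, and a ratio is read only against that of the same pair at another age. The ratios of Cth to Cbs were 0.241, 0.550, 0.390 and 0.527 in order of age, with a 3 month interval (from 0.198 to 0.292) below the intervals of the other ages. The ratio of Bhmt to Mat1a was 0.343, 0.314, 0.173 and 0.297, with a 15 month interval (from 0.147 to 0.203) below the other ages. For Bhmt2 over Bhmt the ratios were 0.140, 0.107, 0.102 and 0.108, and the intervals of all 4 ages overlapped. Those of Mthfd1 over Shmt1 were 1.15, 1.29, 0.847 and 0.663.

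**Figure D4:**
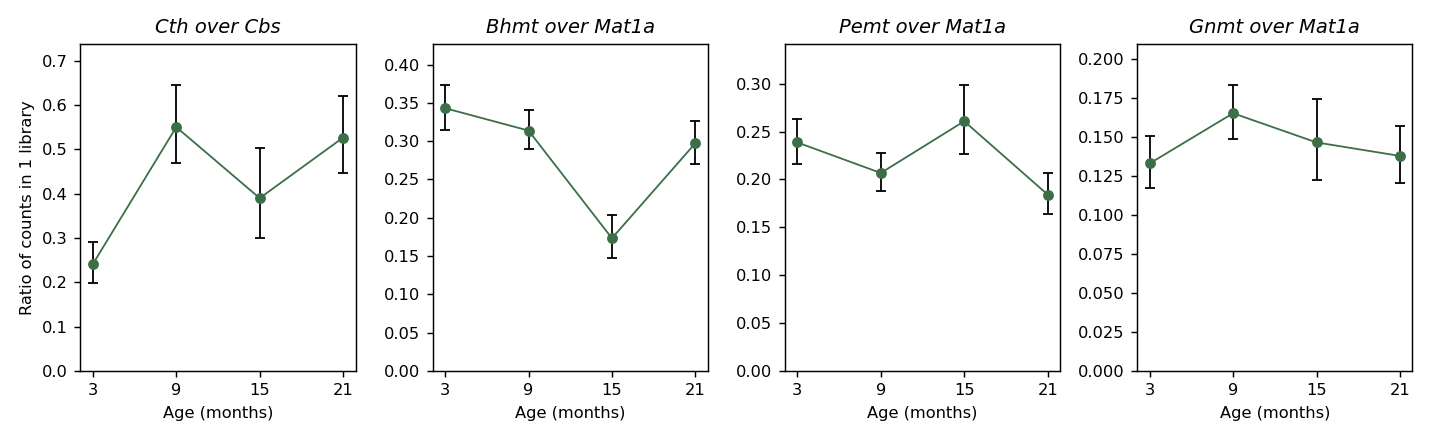
Ratios of the counts of 2 genes in 1 library (y axis, starting at 0) against age in months, with exact 95% intervals. Cth over Cbs is lowest at 3 months and Bhmt over Mat1a lowest at 15 months. Pemt over Mat1a runs from 0.184 at 21 months to 0.261 at 15 months, and Gnmt over Mat1a from 0.133 at 3 months to 0.165 at 9 months. The 21 month interval of Pemt over Mat1a (from 0.164 to 0.206) lies below those of 3 and 15 months.

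Bhmt2, the second betaine-homocysteine methyltransferase gene, lies beside Bhmt on the minus strand of chromosome 13 (94425675 to 94444257, against 94386846 to 94407916 for Bhmt, on NCBIM37, the assembly also called mm9). Its counts were 101, 84, 18 and 61, and its ratio to 3 months was 0.296 (from 0.169 to 0.492) at 15 months and 0.764 (from 0.546 to 1.06) at 21 months. Like Bhmt, it was thus lowest at 15 months. The exons of Bhmt overlap those of Gm15622, and the exons of Shmt1 those of Smcr8, both on the opposite strand. As the strand setting of the counting is not given in the sources used here, reads of these pairs cannot be told apart. The positions of the other members on NCBIM37 are chromosome 14, 41918670 to 41937701 for Mat1a, chromosome 17, 46862613 to 46866117 for Gnmt, chromosome 2, 154885046 to 154900233 for Ahcy and chromosome 17, 31749568 to 31774144 for Cbs. Cth spans 157557212 to 157588041 on chromosome 3, Pemt 59784116 to 59859991 and Shmt1 60601606 to 60625220 on chromosome 11, Gamt 79720896 to 79723757 on chromosome 10 and Mthfd1 77356219 to 77420807 on chromosome 12. All are annotated as protein-coding.

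Of the 78 other listed genes of the pathway, 38 had a mean of at least 20 counts and a count in every library, and 2 were at 0 in all libraries. From 3 to 21 months, 6 of the 38 were at least 1.5-fold higher and 6 lower, against 12.3% and 16.7% of the 2974 genes with that minimum. From 3 to 15 months, 2 were higher and 10 lower (11.6% and 21.8%), and from 3 to 9 months 6 were higher and 5 lower (12.1% and 14.7%). Among the higher genes at 21 months were Adk, which removes the adenosine that Ahcy releases, with a ratio of 1.78 (from 1.36 to 2.33), and Dmgdh, which demethylates the dimethylglycine that Bhmt makes, with 1.82 (from 1.34 to 2.49). Nnmt, which methylates nicotinamide, had 1.68 (from 1.23 to 2.31) and Got1, the cytosolic aspartate aminotransferase, 1.51 (from 1.254 to 1.81). The intervals of the other higher genes, Sqrdl and As3mt, included 1. Adk had 98, 183, 99 and 138 counts and its scaled count was above the 3 month library at every later age.

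Among the lower genes at 21 months, Gclc, the catalytic subunit of the rate-limiting enzyme of glutathione synthesis, had 120, 96, 31 and 40 counts and a ratio of 0.421 (from 0.287 to 0.607). Chdh, which oxidises choline towards betaine, had 0.609 (from 0.430 to 0.853). The sulfur transferases Tst and Mpst had 0.607 (from 0.479 to 0.766) and 0.575 (from 0.343 to 0.938). The intervals of Ethe1 and Folr2 included 1. Of the genes with the most counts in their lists, Aldh1l1 (folate cycle) was at 0.601 (from 0.541 to 0.666) at 15 months and at 0.915 at 21 months. Csad (taurine synthesis) was at 0.641, 0.721 and 0.687 at 9, 15 and 21 months. Glyat, which joins acyl groups to glycine, was at 1.20 (from 1.08 to 1.33) at 21 months. Sds, the serine dehydratase, was at 1.60 (from 1.40 to 1.84) at 9 months, 0.848 (from 0.704 to 1.02) at 15 months and 1.28 (from 1.10 to 1.49) at 21 months.

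**Figure D5:**
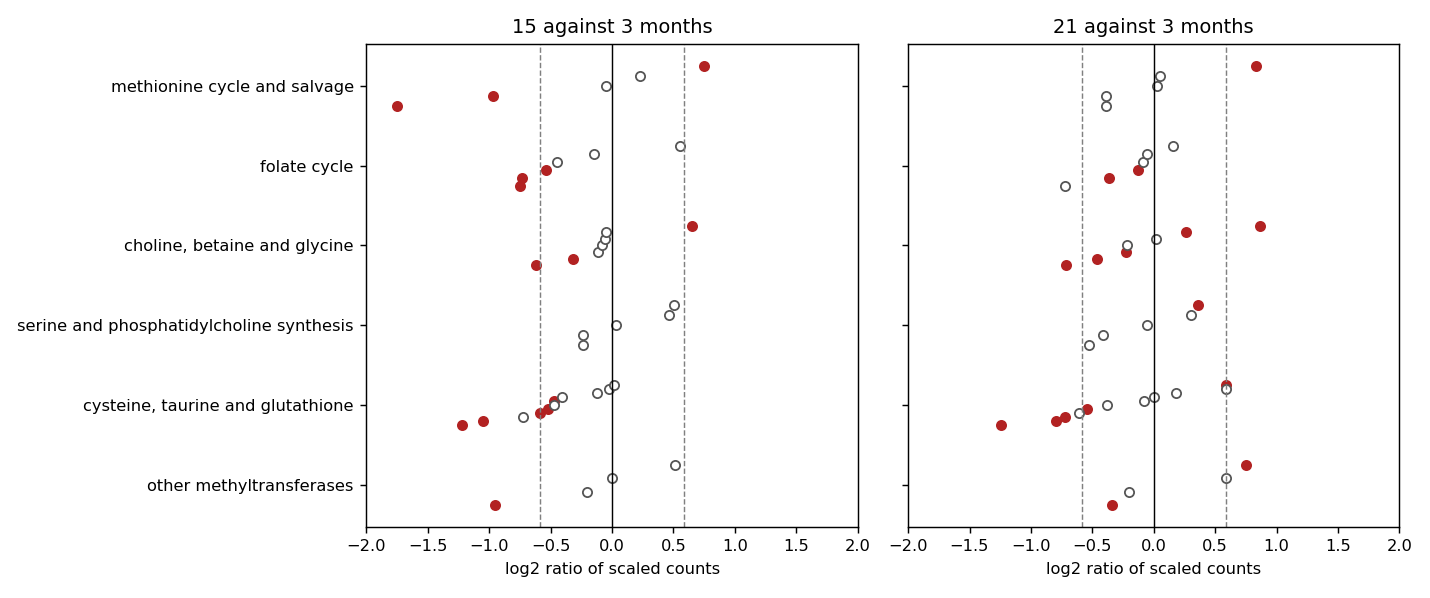
log2 ratios of scaled counts to 3 months (x axis) of the 38 other listed genes with a mean of at least 20 counts, by list, at 15 and at 21 months. Filled points have a 95% interval that leaves out 1, open points do not, and dashed lines mark 1.5-fold; at 15 months 10 genes lie beyond the lower line and 2 beyond the upper line, and at 21 months 6 and 6.

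Markers of other cell types of liver also differed between the libraries. The scaled sum of 6 sinusoidal endothelial markers was 0.919, 0.654 and 0.830 times that of 3 months at 9, 15 and 21 months, that of 6 stellate cell markers 1.70, 1.61 and 1.52 times, and that of 8 Kupffer cell markers 1.20, 1.09 and 1.37 times. Of the endothelial markers, 1 was at least 1.5-fold higher and 1 lower than 3 months at 9 and at 21 months. At 15 months 2 were lower. Of the 7 Kupffer cell markers with a mean of at least 20 counts, 2 were higher and 1 lower at 9 months. At 15 months 1 of these was lower, and at 21 months 2 were higher. Only 4 stellate cell markers had that mean, of which 2, 3 and 3 were higher and 0 lower. Within the hepatocytes, 7 pericentral markers were at 1.20, 1.04 and 1.10 and 7 periportal markers at 1.34, 0.860 and 1.01. At 9 months, 2 of the 6 pericentral markers with a mean of at least 20 counts were at least 1.5-fold higher. So was 1 of the 7 periportal markers, Sds, which is also a listed gene of the pathway. At 9 months 0 were lower, and at 15 and 21 months 0 were past 1.5-fold. The lists for B and plasma cells (1 to 9 counts per library, Ms4a1 at 0), T and NK cells (0 to 5 counts, Trac at 0) and bile duct cells (16 to 27 counts, Epcam at 0) were near 0. The part of these shifts in the values of the members was not tested.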

How the data were processed

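The files deposited by the authors hold unnormalised read counts for each gene symbol. Mapping by the authors was against mm9 in the CLC Genomic workbench, and the processing notes name HTSeq; its settings and the annotation are not given in the sources used here. Rows of reads not assigned to a gene were left out. Scaled counts, clr, ratios, intervals and chi-square tests were calculated with Python 3.11.15 (numpy 2.4.6, pandas 2.3.3, scipy 1.17.1) and the age trend with edgeR 4.0.16 in R 4.3.3 (TMM, filterByExpr, 2 residual degrees of freedom), with DESeq2 1.42.0 as an alternative. The tests were also run on simulated data with larger changes and less noise than those of the members. This does not show how they behave at the noise of these data. Samples were grouped by the age in their labels. The members, gene lists and alternatives were chosen with earlier results of these data known. Named genes were the 10 members, other pathway genes past 1.5-fold at 21 months with an interval that leaves out 1 (at most 12), and the gene with the most counts of each list, of which 1 is not reported here. Bhmt2, Sqrdl, As3mt, Ethe1 and Folr2 were named after their values had been seen. Alternatives were other scalings, thresholds and minimum counts, and leaving out each age.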

Additional observations from a re-analysis of the deposited data

How the results depend on the processing

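With 1 library per age, all ratios rest on single pools, and the number of counts limits Ahcy, Shmt1 and Mthfd1 most. No paired analysis was possible because each age has 1 library. The count of members past 1.5-fold from 3 to 9 months (2) was 1 with library totals or a pseudocount of 1, 0 at a fold of 2 and 5 at the lower fold tried. From 3 to 15 months it was 2 at a fold of 2 (main 4), and from 3 to 21 months 1 (main 2). Cbs was past 1.5-fold at 15 months only in the main scaling and with a pseudocount of 1, whereas Bhmt, Ahcy and Mthfd1 were under all 7 scalings, as Cth and Mthfd1 were at 21 months. Shmt1 was past 1.5-fold at 15 months only with a pseudocount of 1. Scaled to the geometric mean of the 7 normalisation genes of the study, 2 members instead of 5 were past 1.5-fold from 9 to 15 months and 3 instead of 6 were highest at 9 months; both counts were added after seeing the data. With these 7 genes the log2 ratio of Bhmt from 3 to 9 months was -0.0040 and that of Pemt from 9 to 15 months 0.030, the reverse of their main sign. Against 3 months, the 15 month log2 ratios of all genes shifted by 0.13 with library totals or the 7 genes. With the pseudocount, the scale factors alone gave a shift of -0.22, and adding 1 to each count changed it further, by an amount that differed by gene. Without the 10 most abundant genes, the members held 0.685%, 0.809%, 0.564% and 0.782% of the gene counts. The other pathway genes past 1.5-fold from 3 to 21 months were 7 with a mean of at least 50 counts (main 12). The age trend passed for 0 members in all 7 alternatives, and the chi-square test for 6 to 9.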
